A study of Mus musculus with 12 samples.

Results

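MHC class I molecules show peptides from inside a cell to CD8 T cells and natural killer cells. A polymorphic heavy chain pairs with the invariant light chain beta-2-microglobulin, and the pair is loaded in the endoplasmic reticulum with peptides that the proteasome cuts and the TAP transporter carries in. Almost all nucleated cells make these molecules, and interferons raise many of their genes. Hepatocytes make comparatively little class I at rest, and they secrete a soluble form that the gene H2-Q10 encodes.

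The 10 genes described here were 7 heavy chain genes (H2-K1, H2-D1, H2-Q1, H2-Q2, H2-Q4, H2-Q10 and H2-T23), the light chain gene B2m, the peptide transporter gene Tap1 and the immunoproteasome gene Psmb8. They were found by symbol among the 46983 genes of the count files, and all 10 were among the 15664 genes with enough counts to be tested. The set was chosen from an earlier view of these data, in which the response of H2-Q2 to treatment differed widely between genotypes. For that reason all values of H2-Q2, and the genotype by treatment interaction of all 10 genes, are a description with no test. The other 9 genes were tested in the 4 simple comparisons.

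The study sequenced RNA of cultured primary mouse hepatocytes, with 3 libraries in each of 4 groups: untreated wild type (AEG-1-WT), wild type given CP775146 for 24 h, untreated knock-in (AEG-1-L24K/L25H), and knock-in given CP775146 for 24 h. CP775146 is an agonist of PPAR-alpha, the nuclear receptor for fatty acids that switches on fat oxidation in the liver. The knock-in changes 2 amino acids of AEG-1, the product of Mtdh, and was made by CRISPR/Cas9 on C57BL/6/J, with both genotypes obtained as littermates from matings of heterozygotes. Every cell of a knock-in animal carries the change, not hepatocytes alone. Age, sex and diet of the mice that gave these cells, and whether the 3 libraries of a group stem from separate mice or cultures, are not given in the sources used here, so the spread behind each p may be technical only. Each group enters 2 of the 4 simple comparisons, which are therefore not independent of each other. Controls are called untreated with no vehicle named, so agonist and vehicle cannot be told apart, nor can genotype and the cell preparations of each genotype.

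Libraries held between 26956032 and 34885451 counts, and Mtdh stood at 157 to 197 CPM in all 12, a level that cannot show the amino acid change. CPM are counts scaled to library size, corrected by TMM, and CPM per kb divides them by exon length. That length covers all annotated exons of a gene together, 4348 bases for H2-Q10 and 860 for B2m, and can exceed that of a single transcript. Ranks and ratios of different genes per kilobase therefore also depend on the annotation. Of the hepatocyte markers, 7 of 8 were matched and together took 118844 to 127445 CPM in wild type and 74345 to 85708 CPM in the knock-in. Alb made up 86% of that sum, and Hnf4a stood at 563 to 637 CPM in all libraries. Of the 7, 5 were called lower in untreated knock-in and 6 in treated knock-in, where 18.6% and 22% of all genes were. None of 14 lymphocyte and dendritic markers passed the filter, 6 of them were at 0 in every library (among them Cd3d, Cd8a and Ms4a1), and their sum was at most 0.603 CPM. Sums of several other marker lists rested on 1 or 2 genes, so each was also taken without the genes that held over 20% of it, a step chosen after seeing the data. Cd68 made up 94.4% of the macrophage sum (11 of 12 tested), which was 218 to 258 CPM in untreated and 188 to 194 in treated wild type, and 160 to 170 in untreated and 112 to 127 in treated knock-in. The other 11 macrophage markers together had another order, 9.88 to 11.3 and 6.54 to 7.62 CPM in wild type and 12.8 to 14.0 and 9.20 to 9.54 CPM in the knock-in. Endothelial markers (9 of 10 tested) summed to 159 to 177 CPM in untreated wild type and 57.5 to 63.0 CPM in treated knock-in, and without Flt1 and Stab2 they stood at 31.0 to 32.8 and 27.2 to 30.2 CPM in wild type and 31.9 to 33.8 and 28.9 to 30.5 CPM in the knock-in. Reln made up 96% of the stellate sum (5 of 6 tested), which ran from 186 to 218 CPM down to 66.3 to 76.9 CPM in the same 2 groups, and the other 5 summed to at most 7.48 CPM in any library. Cholangiocyte markers (5 of 5) ran the other way, from 15.1 to 18.0 CPM in untreated wild type to 48.3 to 52.5 in treated knock-in. Sox9 and Spp1 made up 72.8% of that sum. The other 3 stood at 4.47 to 5.68 CPM in untreated and 7.07 to 7.83 in treated wild type. In the knock-in they were lower with treatment, at 15.4 to 16.2 CPM untreated and 10.7 to 10.8 treated. Fewer cells of a type and less RNA per cell cannot be told apart in bulk RNA.

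The heavy chain genes are close copies of each other in the mouse H2 region of chromosome 17. In the file annotation (GRCm38/mm10) H2-K1 (ENSMUSG00000061232) spans 17:33996017-34000333, H2-D1 (ENSMUSG00000073411) 17:35262730-35267499, H2-Q1 (ENSMUSG00000079507) 17:35320405-35325099, H2-Q2 (ENSMUSG00000091705) 17:35342242-35346762, H2-Q4 (ENSMUSG00000035929) 17:35379617-35385290, H2-Q10 (ENSMUSG00000067235) 17:35470089-35474563 and H2-T23 (ENSMUSG00000067212) 17:36029773-36032855. Tap1 (ENSMUSG00000037321) lies at 17:34187553-34197225, with Psmb8 (ENSMUSG00000024338) just beyond it at 17:34197721-34201454, whereas B2m (ENSMUSG00000060802) lies on another chromosome, at 2:122147686-122153083.

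The coding sequence of H2-Q2 matched that of H2-K1 at 85.3% of aligned bases and that of its neighbour H2-Q1 at 85.9%, in the GENCODE vM21 transcripts. H2-K1 and H2-D1, the classical heavy chains that present peptides to CD8 T cells, shared 91.4%. Of all 50-base windows of H2-Q2 transcripts, 16.1% were also found in transcripts of another gene, 12.9% in H2-Q1, and with 100-base windows the share was 5.09%, all in H2-Q1. For H2-Q1 the shares were 15.0% and 8.05%, for H2-Q10 19.1% and 8.01%, and for H2-Q4 36.4% and 14.1%, the highest of the set. H2-K1 had 9.63% and 0.957%, H2-D1 12.8% and 3.59%, H2-T23 14.5% and 3.15%, and B2m 0 at both lengths. Reads were counted without the multi-mapping option, and where reads from shared stretches went is not given in the sources used here. The counts of the H2 genes are uncertain for that reason. The shares count exact shared windows only and set no bound on the error of a count. Counting also ignored strand, and 19.1% of the exon bases of H2-Q4 overlap the antisense gene Gm11131, 6.80% of those of Psmb8 overlap Gm20496, and 3.87% of those of Tap1 overlap the head-to-head gene Psmb9.

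Classical class I promoters carry a known upstream control element in which a kappaB site, bound by NF-kappaB, sits beside a site bound by interferon regulatory factors (IRF). That stretch is shown here because H2-Q2 differed more from H2-K1 in it than the other 5 H2-D and H2-Q genes compared. This was not particular to H2-Q2 among the members. The best window of the heavy chain gene H2-T23 shared 14 bases with H2-K1, against 15 for H2-Q2. Whether the stretch bears on any response was not tested. Promoters are the 250 bases before the RefSeq start (GRCm38.p6). For some genes these bases lie partly or wholly inside the gene of the file annotation, as for H2-D1. The 30 bases of H2-K1 are chr17:34000429-34000458 on the minus strand, and the best ungapped match in the 250 bases before each RefSeq start is given for H2-D1 (chr17:35262923-35262952), H2-Q4 (chr17:35379443-35379472), H2-Q10 (chr17:35469913-35469942) and H2-Q2 (chr17:35342091-35342120), all plus strand. Capitals mark bases equal to those of H2-K1.
H2-K1: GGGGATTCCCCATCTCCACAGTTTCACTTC
H2-D1: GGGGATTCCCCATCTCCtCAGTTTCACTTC
H2-Q4: GGGGATTtCCCATCTCCcCAGTTTCACTTC
H2-Q10: GaGGAcTCCCCATCTCCcCAGTTTCACTTC
H2-Q2: caGacTcCaCCcTCTCCtgcagcTCAgcTC

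H2-D1 kept 29 of the 30 bases, H2-Q4 kept 28, and H2-Q10, which differs inside the kappaB site, kept 27. H2-Q6 and H2-Q7, searched for comparison, kept 29 and 25. The best window of H2-Q2 shared 15 bases, no more than many promoters do: 51.0% of 32851 RefSeq promoters had a window with at least 15, and only 7 (0.0213%) had one with at least 25. The best windows of H2-T23 and B2m shared 14 bases, that of Tap1 15 and that of Psmb8 16.

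Upstream sequence of H2-K1 and H2-Q2 is printed to show the setting of those sites. Capitals mark the matches to GGGNNTTCC (a kappaB-like site) and AANNGAAA (the core of an IRF site), each searched on both strands. H2-K1 is chr17:34000348-34000597 (minus strand, bases -250 to -1 from the RefSeq start), and H2-Q2 is chr17:35342057-35342241 (plus strand, bases -250 to -66; the gene begins at the next base in the file annotation).
H2-K1: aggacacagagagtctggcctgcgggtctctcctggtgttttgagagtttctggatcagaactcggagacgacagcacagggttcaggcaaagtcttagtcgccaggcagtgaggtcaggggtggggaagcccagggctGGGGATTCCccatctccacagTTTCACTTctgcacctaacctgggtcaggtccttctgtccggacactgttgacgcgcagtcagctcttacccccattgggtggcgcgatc
H2-Q2: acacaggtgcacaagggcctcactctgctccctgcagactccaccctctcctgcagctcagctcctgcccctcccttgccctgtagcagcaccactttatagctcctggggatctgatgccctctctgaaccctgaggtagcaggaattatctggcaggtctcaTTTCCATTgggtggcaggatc

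A kappaB-like match was present in the promoters of H2-K1, H2-D1 and H2-Q4 and in 4.98% of all 32851 promoters. None was found for H2-Q2, H2-Q10, H2-T23, B2m, Tap1 or Psmb8. An IRF core was present in H2-K1, H2-D1, H2-Q2, H2-Q4, H2-Q10, H2-T23 (2 matches) and B2m, against 21.3% of all promoters, and the match of H2-Q2 began at base -86, where it overlaps a CCAAT box by 3 bases. The nuclear receptor half-site AGGTCA was found in H2-K1, H2-D1 and H2-T23 with 1 match and in H2-Q10 with 2, against 14.0% of all promoters. PPAR-alpha and its partner RXR are known to bind pairs of such half-sites with 1 base between them. A pair of 2 exact copies was found in none of the 9 members searched and in 11 of all promoters (0.0335%). Inexact copies were not searched. With exact pairs so rare in any promoter, their absence from the 9 says nothing about PPAR-alpha sites. H2-Q1 was not searched. By the file annotation, the searched windows of H2-D1 and Psmb8 lie wholly inside the gene, and so do all matches of H2-D1. The window of H2-T23 lies outside its gene only from base -250 to -155. Its IRF and half-site matches are inside the gene. A missing match says only that these letters are not in the window searched.

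**Figure D1:**
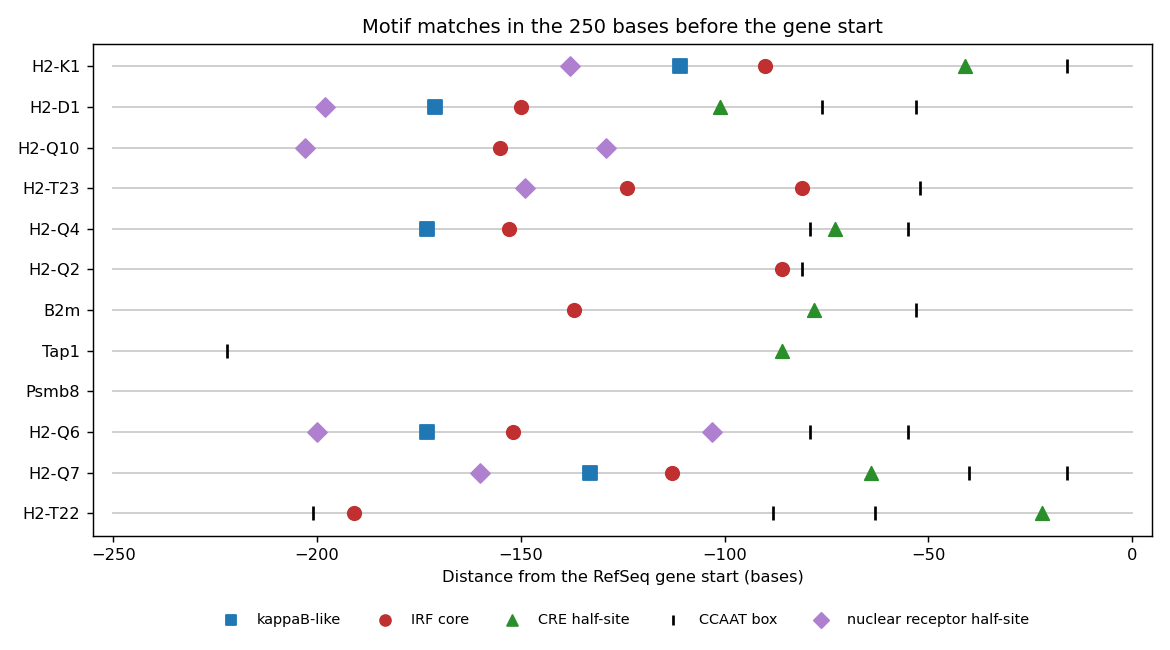
Motif matches in the 250 bases before the RefSeq start of 9 of the 10 genes and of H2-Q6, H2-Q7 and H2-T22; the x axis is the distance from the start in bases and each symbol is a match on either strand. The kappaB-like and IRF symbols stand side by side in H2-K1, H2-D1, H2-Q4, H2-Q6 and H2-Q7, and the row of H2-Q2 holds an IRF core and a CCAAT box only.

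Per kilobase, B2m was the most abundant of the 10 transcripts in every group, and the order B2m, H2-K1, H2-D1, H2-Q10, H2-T23 and H2-Q1 held in all 4. In untreated wild type these stood at 1469, 422, 278, 152, 40.0 and 13.3 CPM per kb. H2-Q4 (8.68), Tap1 (4.98), Psmb8 (3.87) and H2-Q2 (2.33) followed. No neighbours in that order overlapped in their 3 libraries. H2-Q2 was the lowest of the 10 in 3 groups, and in treated wild type it stood in seventh place, at 18.7 CPM per kb, between H2-Q1 (25.9) and H2-Q4 (11.1). In treated knock-in, Psmb8 (6.21) and Tap1 (6.13) overlapped.

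**Figure D2:**
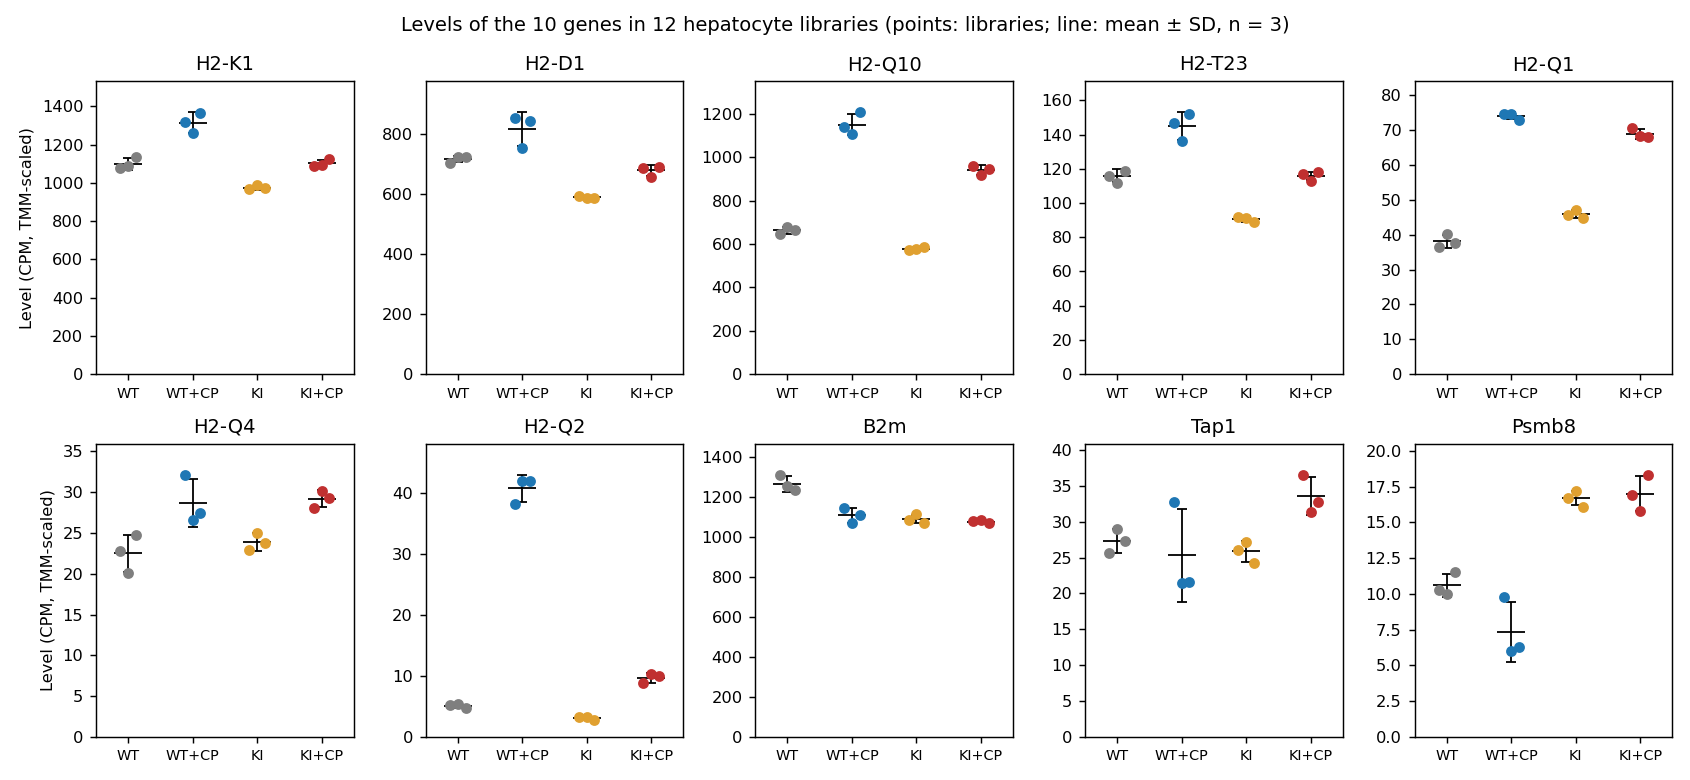
Level in CPM of each of the 10 genes in the 12 libraries; points are libraries, lines are the mean ± SD of 3, WT is wild type, KI is the knock-in and CP is CP775146. The treated wild-type points of H2-Q2 (38.2 to 42.0 CPM) stand far above all others, and the treated wild-type points of Tap1 and Psmb8 are spread, with replicate 1 above the other two.

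CP775146 was associated with higher levels of all 7 heavy chain transcripts in both genotypes. The 6 that were tested passed in wild type, where 22.7% of all genes were called higher, and in the knock-in, where 18.1% were. Their median log2 fold changes were 0.34 and 0.32, against -0.01 over all genes in each. The rise was under 1.3-fold for H2-K1, H2-D1, H2-Q4 and H2-T23 and larger for H2-Q1 and H2-Q10. Of the 9 tested genes 2, B2m and Psmb8, fell in wild type, close to the 22.3% of all genes called lower there. No tested gene of the set fell in the knock-in, where 19.1% of all genes were called lower by edgeR. That count of 0 was also 0 at an unadjusted p below 0.05, with limma voom and with DESeq2.

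H2-K1 read 1078, 1088 and 1135 CPM in untreated wild type, 1319, 1259 and 1367 in treated wild type, 966, 988 and 971 in untreated knock-in, and 1090, 1093 and 1125 in treated knock-in. Treated libraries were above untreated ones of the same genotype without overlap. The rise was 0.26 ± 0.04 log2 (± SE) in wild type (edgeR adjusted p = 1.03e-06) and 0.18 ± 0.04 in the knock-in (edgeR adjusted p = 0.000263). H2-D1 read 704, 721 and 724 CPM in untreated and 852, 751 and 843 in treated wild type, then 592, 586 and 585 in untreated and 686, 657 and 691 in treated knock-in. Here too treatment separated the libraries within each genotype, although replicate 2 of treated wild type was close to the untreated ones. H2-D1 rose by 0.19 ± 0.04 log2 in wild type (edgeR adjusted p = 0.000358) and by 0.21 ± 0.04 in the knock-in (edgeR adjusted p = 0.00014).

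H2-Q10, whose product hepatocytes secrete, was at 647, 678 and 663 CPM in untreated and 1140, 1109 and 1208 CPM in treated wild type. In the knock-in it was at 572, 579 and 586 CPM untreated and 960, 917 and 949 CPM treated. All 4 groups were separate. The rise was 1.74-fold in wild type (0.80 ± 0.04 log2, edgeR adjusted p = 3.88e-17) and 1.63-fold in the knock-in (0.70 ± 0.04 log2, edgeR adjusted p = 1.1e-15). Per kilobase, H2-Q10 went from 36.1% to 52.5% of H2-K1 in wild type and from 35.6% to 51.3% in the knock-in, and its share of the 7 heavy chain transcripts from 16.6% ± 0.361 to 22.3% ± 0.433 and from 16.8% ± 0.223 to 22.1% ± 0.318 (SD, n = 3).

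H2-T23 encodes Qa-1, a nonclassical molecule that natural killer cells read through the receptor CD94/NKG2A. It read 116, 112 and 119 CPM in untreated and 147, 136 and 152 in treated wild type, against 92.1, 91.5 and 88.7 untreated and 117, 113 and 118 treated in the knock-in. Treated knock-in libraries thus lay in the range of untreated wild type. The rise was 0.33 ± 0.04 log2 in wild type (edgeR adjusted p = 1.67e-07) and 0.36 ± 0.04 log2 in the knock-in (edgeR adjusted p = 4.86e-08).

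H2-Q1 and H2-Q4 belong to the nonclassical Qa genes. H2-Q1 read 36.4, 40.2 and 37.6 CPM in untreated and 74.6, 74.7 and 73.0 in treated wild type. Knock-in libraries read 45.8, 47.1 and 44.9 CPM untreated and 70.5, 68.3 and 68.0 CPM treated. It was the tested member with the largest rise in wild type, 1.95-fold (0.96 ± 0.05 log2, edgeR adjusted p = 4.27e-17), and rose 1.5-fold in the knock-in (0.59 ± 0.04 log2, edgeR adjusted p = 3.05e-12). H2-Q4 read 22.8, 20.1 and 24.7 CPM in untreated and 32.1, 26.6 and 27.4 in treated wild type. Knock-in libraries read 22.9, 25.0 and 23.8 CPM untreated and 28.1, 30.2 and 29.3 CPM treated. The treated libraries of H2-Q4 were higher in each genotype without overlap, by 0.35 ± 0.07 log2 (edgeR adjusted p = 0.000231) and 0.29 ± 0.07 log2 (edgeR adjusted p = 0.00138).

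H2-Q2, another Qa gene, had the widest range. Its counts were 143, 142 and 130 in untreated and 1162, 1232 and 1129 in treated wild type. The knock-in had 101, 106 and 99 untreated and 277, 337 and 352 treated, all far above the limit that a count of 0 allows (3 counts, 0.086 to 0.111 CPM, for counting error only). In CPM these were 5.24, 5.34 and 4.66, then 38.2, 41.9 and 42.0, then 3.19, 3.24 and 2.81, and last 8.79, 10.3 and 9.91. The 4 groups did not overlap, and treated knock-in lay nearer to untreated wild type than to treated wild type. The treated mean was 8.02 times the untreated one in wild type (3.0 ± 0.08 log2) and 3.14 times in the knock-in (1.66 ± 0.10 log2), so the responses differed by -1.35 ± 0.13 log2, the value that led to the choice of the set. As a share of H2-Q1 per kilobase, the gene with which it shares most sequence, H2-Q2 was 17.5% in untreated and 71.9% in treated wild type, and 8.77% and 18.4% in the knock-in. Its share of the 7 heavy chain transcripts went from 0.254% ± 0.0224 to 1.57% ± 0.124 in wild type and from 0.178% ± 0.0129 to 0.452% ± 0.0411 in the knock-in (SD, n = 3).

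**Figure D3:**
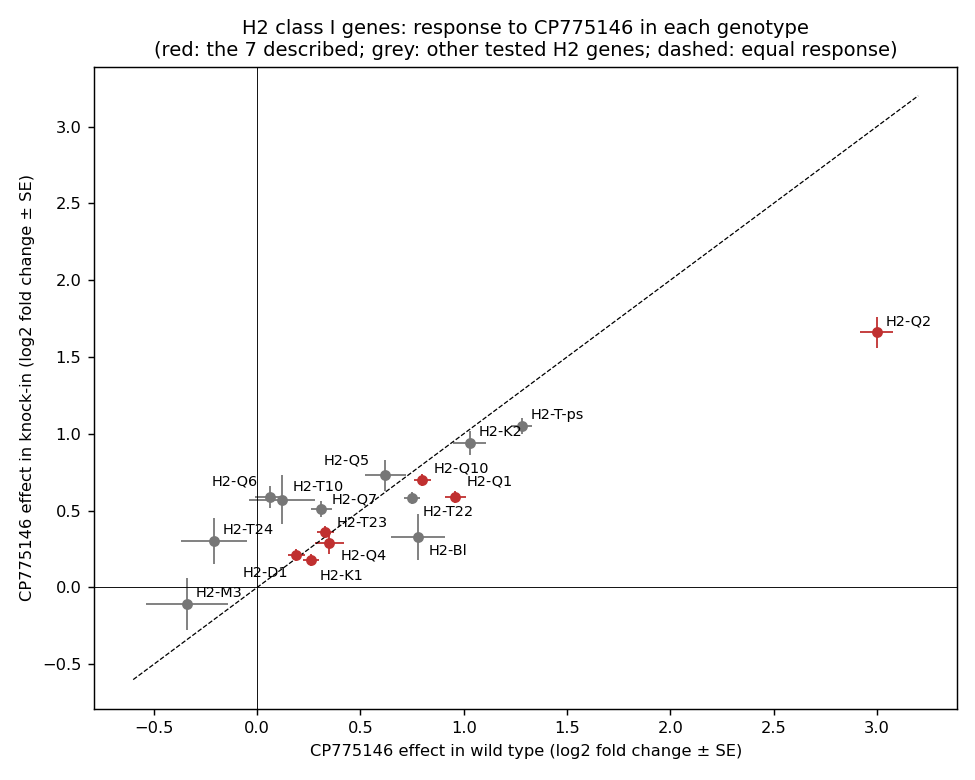
Response to CP775146 in wild type (x axis) and in the knock-in (y axis), each as log2 fold change ± SE; red points are the 7 heavy chain genes described and grey points the other tested H2 class I genes, and the dashed line marks equal responses. H2-Q2 lies at 3.0 and 1.66, to the right of every other gene, and most others lie near the line between 0 and 1.3.

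Side by side, the differences between the responses (knock-in minus wild type, log2) were -0.08 ± 0.05 for H2-K1, 0.02 ± 0.06 for H2-D1, 0.03 ± 0.06 for H2-T23, -0.06 ± 0.10 for H2-Q4, -0.10 ± 0.05 for H2-Q10 and -0.38 ± 0.06 for H2-Q1. For B2m the difference was 0.17 ± 0.05, for Tap1 0.48 ± 0.22 and for Psmb8 0.55 ± 0.18. In that contrast 7.11% of all genes passed, and of the 10 members H2-Q2, H2-Q1 and B2m did; the contrast was used to choose the set, so nothing is read from that count.

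B2m, the light chain that every class I heavy chain needs for its folding, moved differently from the heavy chains. It read 1307, 1251 and 1231 CPM in untreated and 1144, 1069 and 1106 in treated wild type. Knock-in libraries read 1085, 1112 and 1070 CPM untreated and 1076, 1081 and 1070 CPM treated. Untreated wild type was the highest group and the other 3 overlapped. B2m fell by 0.19 ± 0.04 log2 with treatment in wild type (edgeR adjusted p = 6.76e-05), while the value in the knock-in was -0.02 ± 0.04 log2 (edgeR adjusted p = 0.742). The sum of the 7 heavy chain transcripts per kilobase was 62.4% of B2m in untreated and 92.6% in treated wild type, and 62.6% and 78.6% in the knock-in. On the log2 scale these ratios were -0.68 ± 0.07, -0.11 ± 0.05, -0.68 ± 0.02 and -0.35 ± 0.03 (SD, n = 3), and treated and untreated libraries did not overlap.

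Tap1 encodes a subunit of the transporter that brings peptides into the endoplasmic reticulum. It read 25.6, 29.0 and 27.3 CPM in untreated and 32.8, 21.4 and 21.6 in treated wild type. Knock-in libraries read 26.1, 27.2 and 24.3 CPM untreated and 36.5, 31.3 and 32.8 CPM treated. Replicate 1 of treated wild type stood among the treated knock-in libraries and its 2 partners below all other libraries. The change with treatment was -0.10 ± 0.16 log2 in wild type (edgeR adjusted p = 0.638) and 0.37 ± 0.15 log2 in the knock-in (edgeR adjusted p = 0.0838), and neither passed. Without replicate 1 of treated wild type, both passed: Tap1 fell by 0.35 log2 in wild type (edgeR adjusted p = 0.000267) and rose by 0.38 log2 in the knock-in (edgeR adjusted p = 6.89e-06). Tap1 also passed in the knock-in with the 2 groups alone (0.38 log2, edgeR adjusted p = 4.35e-07) and with limma voom (0.36 log2, adjusted p = 0.00064).

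Psmb8 encodes the immunoproteasome subunit that takes the place of the constitutive subunit Psmb5. Its levels were 10.3, 10 and 11.5 CPM in untreated and 9.76, 6.02 and 6.25 in treated wild type. Knock-in libraries read 16.7, 17.2 and 16.1 CPM untreated and 16.9, 15.8 and 18.3 CPM treated. Every knock-in library was above every wild-type library, and replicate 1 of treated wild type was again the highest of its group. Psmb8 fell by 0.52 ± 0.14 log2 with treatment in wild type (edgeR adjusted p = 0.00728), and the value in the knock-in was 0.03 ± 0.11 log2 (edgeR adjusted p = 0.867). Without replicate 1 of treated wild type, the value in wild type was -0.80 log2 and still passed.

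In untreated cells the knock-in had lower levels of the classical heavy chains and of B2m and a higher level of Psmb8. Of the 9 tested members 5 were lower (H2-K1, H2-D1, H2-Q10, H2-T23 and B2m), where 18.6% of all genes were called lower. H2-Q1 and Psmb8 were higher, where 18.4% of all genes were called higher, and H2-Q4 and Tap1 did not pass. The median of the 9 was -0.17 log2. H2-T23 was 0.35 ± 0.04 log2 lower (edgeR adjusted p = 7.92e-08), H2-D1 0.29 ± 0.04 lower (edgeR adjusted p = 1.32e-06) and B2m 0.21 ± 0.04 lower (edgeR adjusted p = 1.88e-05). H2-Q10 and H2-K1 differed less, by -0.19 ± 0.04 log2 (edgeR adjusted p = 0.000103) and -0.17 ± 0.04 log2 (edgeR adjusted p = 0.000312). H2-Q1 was 0.27 ± 0.05 log2 higher (edgeR adjusted p = 2.01e-05) and Psmb8 1.57-fold higher (0.65 ± 0.12 log2, edgeR adjusted p = 0.000652), whereas H2-Q2 was 1.65-fold lower (-0.72 ± 0.11 log2). The values that did not pass were 0.08 ± 0.07 log2 for H2-Q4 (edgeR adjusted p = 0.391) and -0.08 ± 0.16 log2 for Tap1 (edgeR adjusted p = 0.749).

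With CP775146 present, 5 of the 9 were lower in the knock-in (H2-K1, H2-D1, H2-Q1, H2-Q10 and H2-T23), where 22% of all genes were called lower, and Psmb8 alone was higher, where 20.5% were. Psmb8 was 2.31-fold higher (1.20 ± 0.13 log2, edgeR adjusted p = 1.88e-06). H2-Q10 was 0.29 ± 0.04 log2 lower (edgeR adjusted p = 1.59e-07), H2-T23 0.32 ± 0.04 lower (edgeR adjusted p = 2.05e-07), H2-D1 0.27 ± 0.04 lower (edgeR adjusted p = 3.23e-06) and H2-K1 0.25 ± 0.04 lower (edgeR adjusted p = 1.28e-06). H2-Q1 passed narrowly, at -0.10 ± 0.04 log2 (edgeR adjusted p = 0.0467), and lost the call in most alternatives, including without any single library of either treated group (edgeR adjusted p = 0.0556 to 0.146); with total counts as the only scaling its value was 0.03 log2. H2-Q2 was 4.21-fold lower (-2.07 ± 0.07 log2). H2-Q4 (0.02 ± 0.07 log2, edgeR adjusted p = 0.819), B2m (-0.04 ± 0.04, edgeR adjusted p = 0.395) and Tap1 (0.40 ± 0.15, edgeR adjusted p = 0.0627) did not pass. Without replicate 1 of treated wild type, Tap1 was 0.65 log2 higher in the knock-in (edgeR adjusted p = 1.3e-08). B2m turned to 0.10 log2 with total-count scaling.

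**Figure D4:**
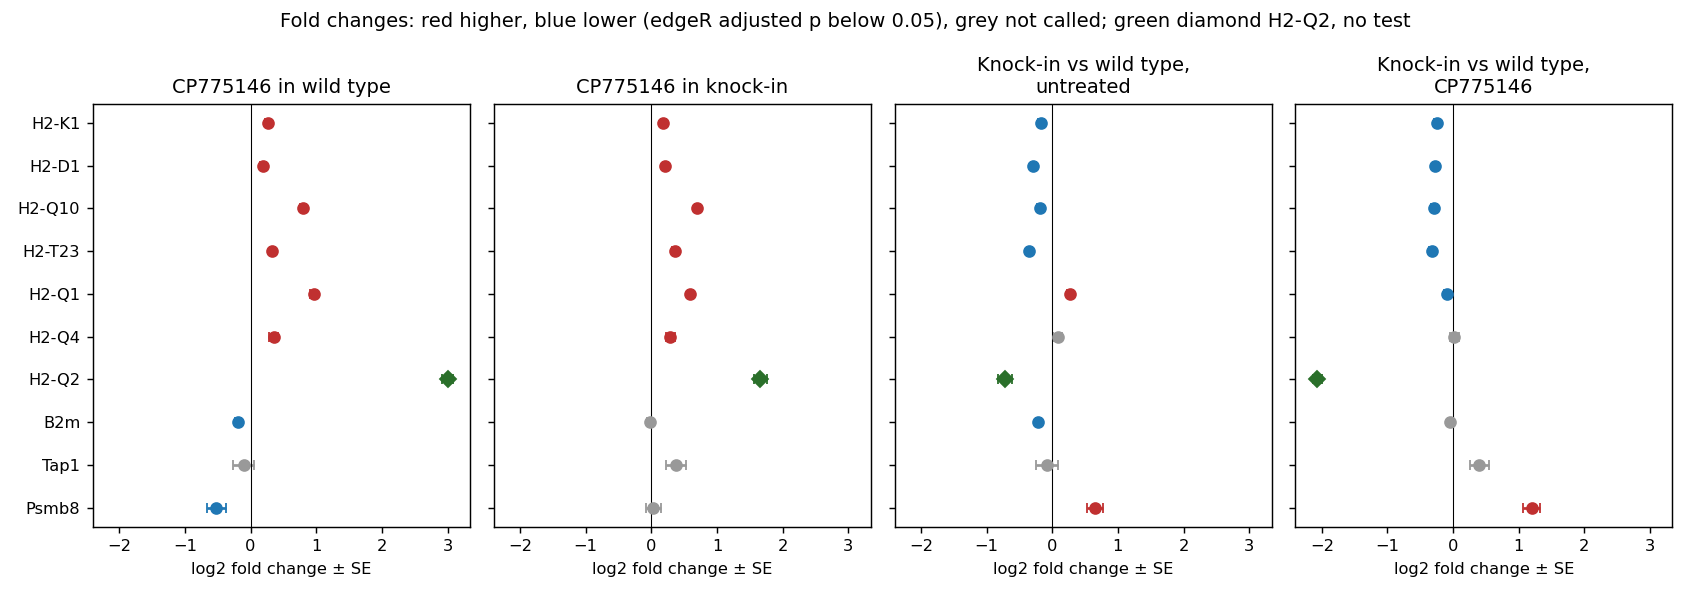
Log2 fold change ± SE of the 10 genes in the 4 simple comparisons; red and blue mark genes called higher or lower, grey those not called, and the green diamond H2-Q2, which has no test. All 6 tested heavy chains are red in both treatment panels, Psmb8 is red in both genotype panels, and H2-Q2 lies at -2.07 in the last panel.

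Among the other class I genes of the list, 17 of 28 were tested, 8 were removed by the low-count filter and 3 were not matched. With CP775146, 10 of the 17 were higher in wild type and none lower (edgeR; 0 at an unadjusted p below 0.05, 0 with limma voom and DESeq2), and in the knock-in 10 were higher and 1 lower. Over all genes 22.7% were called higher and 22.3% lower in wild type, and 18.1% and 19.1% in the knock-in. For the 10 tested H2 genes among them the medians were 0.46 and 0.58 log2. Without treatment 8 of these 10 were lower in the knock-in and 1 higher, with a median of -0.43 log2, where 18.6% and 18.4% of all genes were.

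H2-T-ps, annotated as a class I pseudogene, went from 24.8 ± 0.418 to 60.2 ± 1.64 CPM with treatment in wild type (1.28 ± 0.05 log2, edgeR adjusted p = 3.99e-19) and from 14.6 ± 0.398 to 30.3 ± 1.38 CPM in the knock-in (1.05 ± 0.05 log2, edgeR adjusted p = 5.56e-16). H2-T22, whose product gamma-delta T cells can recognise, went from 98.2 ± 2.54 to 165 ± 9.19 CPM and from 84.5 ± 0.613 to 127 ± 0.867 CPM, by 0.75 ± 0.04 and 0.58 ± 0.04 log2. H2-Q7, a gene for the nonclassical molecule Qa-2, was 0.79 ± 0.05 log2 lower in untreated knock-in (22 ± 0.816 against 38.1 ± 0.644 CPM, edgeR adjusted p = 1.47e-13). Fcgrt, the heavy chain of the neonatal Fc receptor, which also pairs with beta-2-microglobulin, rose 2.87-fold in wild type (71.8 ± 4.05 to 206 ± 13.4 CPM, edgeR adjusted p = 8.04e-22) and 2.25-fold in the knock-in (80.7 ± 1.19 to 181 ± 4.46 CPM, edgeR adjusted p = 5.03e-19).

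For peptide supply and loading, all 25 listed genes were tested. In untreated knock-in 12 were higher and 2 lower, where 18.4% and 18.6% of all genes were, and with treatment 10 were higher and 3 lower, where 20.5% and 22% were. With CP775146, 10 rose and 4 fell in wild type, where 22.7% and 22.3% of all genes did. In the knock-in, where 18.1% and 19.1% did, 7 rose and none fell (edgeR; 0 at an unadjusted p below 0.05, 1 with limma voom and 0 with DESeq2). Psme1, a subunit of the proteasome activator PA28, stood at 44.0 ± 2.61 CPM in untreated wild type and 59.7 ± 3.15 CPM in untreated knock-in (0.44 ± 0.05 log2, edgeR adjusted p = 8.25e-08), and at 45.7 ± 3.09 and 74.2 ± 2.48 CPM with treatment (0.70 ± 0.05 log2, edgeR adjusted p = 4.22e-12). Tap2, the partner of Tap1 in the transporter, was 0.38 ± 0.07 log2 higher in untreated knock-in (edgeR adjusted p = 0.000129) and 0.69 ± 0.08 higher with treatment (edgeR adjusted p = 1.02e-08). Tapbpl, a peptide editor of class I, was 0.36 ± 0.05 log2 higher in untreated knock-in (edgeR adjusted p = 9.12e-07).

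The other catalytic immunoproteasome subunits, Psmb9 and Psmb10, also stood higher in the knock-in. Psmb10 read 18.4 ± 1.42, 14.9 ± 2.27, 27.0 ± 0.995 and 29.4 ± 1.70 CPM in untreated and treated wild type and untreated and treated knock-in. The genotype difference of Psmb10 was 0.56 ± 0.08 log2 without treatment (edgeR adjusted p = 2.18e-06) and 0.98 ± 0.08 with it (edgeR adjusted p = 1.43e-10). Psmb9, named as the third catalytic subunit after its values were seen, differed by 0.74 ± 0.14 log2 (edgeR adjusted p = 7.42e-05) and 0.92 ± 0.14 log2 (edgeR adjusted p = 3.01e-06). Per kilobase, Psmb8 was 10.2% of Psmb5 in untreated and 5.81% in treated wild type, and 15.0% and 12.2% in the knock-in. Psmb10 was 60.7% and 43.8% of its constitutive counterpart Psmb7 in wild type and 80.6% and 84.1% in the knock-in, whereas Psmb9 was 1.29% to 2.55% of Psmb6 throughout. In none of these 3 ratios did a wild-type library reach a knock-in library; a two-sided exact permutation test of 3 against 3 cannot go below 0.1 and was not used.

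**Figure D5:**
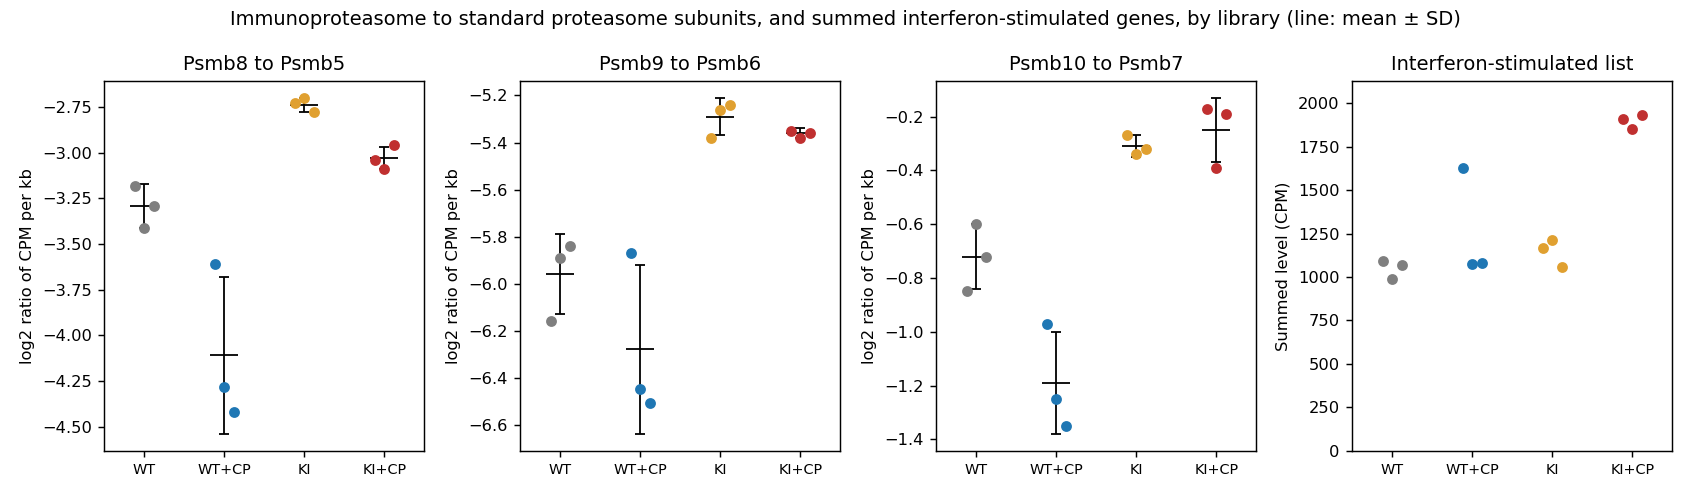
Log2 ratio of each immunoproteasome subunit to the constitutive subunit it replaces, on CPM per kb, and the summed CPM of 36 interferon-stimulated genes; points are libraries and lines the mean ± SD of 3. The knock-in points lie above the wild-type points in the 3 ratio panels, and replicate 1 of treated wild type stands above its partners in all 4 panels, at 1629 CPM in the last.

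Genes that regulate class I (30 of 31 tested) were higher in 7 cases and lower in 1 in untreated knock-in (18.4% and 18.6% of all genes), and higher in 10 and lower in 1 in treated knock-in (20.5% and 22%). The 7 higher are close to the share over all genes. With CP775146, 2 were higher and 9 lower in wild type (22.7% and 22.3% of all genes), and 8 were higher and 11 lower in the knock-in (18.1% and 19.1%). Jak2, a kinase of the interferon-gamma receptor, rose from 31.1 ± 0.96 to 46.5 ± 3.04 CPM in wild type (0.58 ± 0.06 log2, edgeR adjusted p = 6.07e-10) and from 38.5 ± 2.32 to 59.5 ± 2.66 CPM in the knock-in (0.63 ± 0.05 log2, edgeR adjusted p = 4.02e-11). Ifngr1, the ligand-binding chain of that receptor, rose by 0.40 ± 0.04 and 0.36 ± 0.04 log2. Its partner chain Ifngr2 was 0.33 ± 0.04 log2 higher in untreated knock-in (edgeR adjusted p = 1.11e-07). Stat3, a cytokine-responsive transcription factor, fell by 0.30 ± 0.04 log2 in wild type (edgeR adjusted p = 1.28e-07) and 0.23 ± 0.04 in the knock-in (edgeR adjusted p = 1.79e-05).

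Of the interferon-stimulated list, 35 of 36 were tested. In the knock-in 29 were higher with CP775146 and 1 lower (median 0.93 log2), where 18.1% and 19.1% of all genes were. In wild type 3 were higher and 2 lower (median 0.05), where 22.7% and 22.3% of all genes were. Between genotypes 1 was higher in untreated knock-in, where 18.4% of all genes were, and 29 in treated knock-in (median 0.79), where 20.5% were. The difference between the responses itself passed for 3 of the 35 (edgeR, median 0.70 log2), all with the larger value in the knock-in, where 7.11% of all genes passed; it was 24 with limma voom and 5 with DESeq2. The summed level was 990 to 1094 CPM in untreated wild type, 1055 to 1212 in untreated and 1854 to 1934 in treated knock-in. In treated wild type it was 1629, 1074 and 1079 CPM, so that replicate 1 stood apart, as for Tap1 and Psmb8. Without that library 16 of the list were lower with treatment in wild type, 12 were higher in untreated knock-in, and the difference between the responses passed for 31. Without replicate 3 of untreated knock-in, 17 were higher with treatment in the knock-in, and in a fit of the treated groups alone 11 were higher in the knock-in.

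Single genes of that list differed in pattern. Oas3, which makes the activator of RNase L, went from 2.03 ± 0.185 to 5.18 ± 0.352 CPM with treatment in the knock-in (1.35 ± 0.15 log2, edgeR adjusted p = 3.22e-08) and stood at 1.77 ± 0.117 and 1.78 ± 0.679 CPM in wild type. Iigp1, an interferon-inducible GTPase, rose in both, by 0.99 ± 0.08 log2 (edgeR adjusted p = 1.98e-07) and 1.04 ± 0.07 log2 (edgeR adjusted p = 1.41e-07). Ifit2, an RNA-binding antiviral protein, fell in both, by 0.87 ± 0.09 log2 (edgeR adjusted p = 1.76e-09) and 0.65 ± 0.07 log2 (edgeR adjusted p = 1.24e-08). Ifi47, another such GTPase, fell by 0.55 ± 0.10 log2 in wild type (edgeR adjusted p = 0.0001), and its value in the knock-in was 0.03 ± 0.09 log2 (edgeR adjusted p = 0.808).

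By Pearson's r of log2 CPM over the 12 libraries, and among 10942 genes averaging 1 CPM or more, the 5 genes most like H2-Q2 included Rab30 (a small GTPase, r = 0.995), Slc11a2 (an iron transporter, 0.993), Sdha (a subunit of succinate dehydrogenase, 0.993) and Trap1 (a mitochondrial chaperone, 0.992). Those most like Tap1 were Oas1a (an oligoadenylate synthetase, r = 0.930), Parp10 (a mono-ADP-ribosyltransferase, 0.929), Ifi35 (0.924), Apol9a (0.918) and Usp18 (a protease that removes ISG15, 0.911). The 12 points fall into 4 groups of 3 that all genes share. Rab30 stood at 33.3 ± 1.15, 154 ± 11.3, 19.0 ± 0.367 and 53.2 ± 3.60 CPM in untreated and treated wild type and untreated and treated knock-in, the same order as H2-Q2. Usp18 read 80, 39.5 and 39.0 CPM in treated wild type, with replicate 1 close to treated knock-in (83.4 ± 2.59 CPM), as Tap1 did.

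Class II genes, which mark professional antigen-presenting cells, were low, with 5 of 10 tested and a sum that was mostly H2-Ab1 in wild type, at 5.19 to 6.48 and 9.69 to 10.7 CPM in untreated and treated wild type and 4.37 to 5.06 and 5.27 to 6.47 CPM in the knock-in. H2-Ab1 read 4.10 ± 0.293 and 8.47 ± 0.649 CPM in wild type, and 2.10 ± 0.285 and 3.59 ± 0.663 CPM in the knock-in, and rose in both (1.05 ± 0.12 and 0.77 ± 0.15 log2). H2-Eb1 was at most 0.682 CPM in any library and rose in wild type (1.25 ± 0.40 log2, edgeR adjusted p = 0.0119). With treatment, 2 of the 5 were called higher in wild type and 1 in the knock-in, where 22.7% and 18.1% of all genes were. The other 3 in wild type and 4 in the knock-in were not called. Cd74 and H2-Aa had lower means with treatment in both genotypes, and H2-DMa slightly higher ones. With treatment, 5 of the 11 tested macrophage markers were lower in each genotype. Of the 9 endothelial markers 4 were lower in wild type and 2 in the knock-in. Over all genes 22.3% were called lower in wild type and 19.1% in the knock-in, and the 2 endothelial markers are close to that share. In untreated knock-in, macrophage markers went both ways (Marco, C1qa and Lyz2 higher, Cd68 lower), as did endothelial ones (Stab1 and Oit3 higher, Stab2, Cdh5 and Flt1 lower). The part of these cells in the genotype and treatment differences was not tested.

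Other genes of the H2 region were counted beside the heavy chain genes. Between H2-K2 and H2-M3 (chr17:33974831-37274484), there were 102 tested genes once the listed H2 class I genes were left out. Tap1, Psmb8 and Psmb9 are among these 102, and class I copies without an H2 symbol were not left out. With CP775146, 10.8% of these were higher and 27.5% lower in wild type, where 22.7% and 22.3% of all genes were. In the knock-in 8.82% were higher and 22.5% lower, where 18.1% and 19.1% of all genes were. Knock-in cells had 22.5% of them higher and 13.7% lower without treatment, where 18.4% and 18.6% of all genes were. With treatment 28.4% were higher and 11.8% lower in the knock-in, where 20.5% and 22% of all genes were. The medians of these 102 genes were small, -0.08 and -0.05 log2 with treatment in wild type and knock-in. Between genotypes they were 0.03 log2 without treatment and 0.05 with it. In each of the 4 comparisons most of the tested heavy chains were called in the direction with the smaller share of region genes. Several of these shares are close to those over all genes, so nothing is read from that contrast. Both genotypes are stated to be on C57BL/6/J; whether the H2 alleles or copy numbers of the animals were equal was not tested.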

How the data were processed

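RNA libraries were prepared from total RNA with a TruSeq kit, per the labels' protocols. The authors deposited raw counts, a file for each library, in which featureCounts 1.6.2 summed reads over the exons of each gene (Ensembl release 83, mm10), with no strand or multi-mapping option, per the file headers. The submitters' processing notes list featureCounts 1.4.6-p4, Subread, cutadapt 1.9, FastQC 0.11.2 and edgeR 3.18.1. The agonist dose has an unreadable unit in the labels and is not given.

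Of 46983 genes, 46488 had a symbol and 15664 passed filterByExpr (minimum count 10, total 15), which kept at least 99.94% of the counts in a library. After TMM scaling, a robust quasi-likelihood fit of edgeR 4.0.16 (R 4.3.3) covered all 12 libraries with 1 term per group, and calls required an adjusted p (Benjamini-Hochberg, over all tested genes) under 0.05. Wild-type libraries varied more, with biological coefficients of variation of 5.1% untreated and 5.33% treated, against 2.59% and 2.63% for the knock-in, while the fit shares its spread over groups. Log2 CPM used a prior count of 2. The alternatives tried were DESeq2 1.42.0, voom of limma 3.58.1, RLE and total-count scaling, no filter, 5 CPM in 3 libraries, the compared groups alone, a replicate block, and each library left out.

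The 10 members and all gene lists were chosen with earlier results of these data known. Every member is named, and from each other list up to 4 genes with the smallest adjusted p over the 4 simple comparisons. Cd74, H2-Aa and H2-DMa of the class II list are named besides. The genes most like H2-Q2 and Tap1 are the 5 with the highest r, leaving out members and genes without an established name. Limits from counts cover counting error only. One gene that the rule on likeness to H2-Q2 picks is not reported here.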

Additional observations from a re-analysis of the deposited data

Results flagged for a closer look

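The interaction contrast, knock-in response minus wild-type response to CP775146, passed its threshold for 3 of the 10 members and for 7.11% of all genes. The response of H2-Q2 was smaller in the knock-in by 1.35 log2 (-1.35) and that of H2-Q1 by 0.38 (-0.38), while that of B2m was higher by 0.17. These values belong to the contrast from which the set was chosen and carry no test here, and nothing is read from their number. Among the named genes of the other lists, the same contrast passed for Fcgrt (-0.35 log2), Psme1 (0.26), Psmb10 (0.42), Oas3 (1.33) and Ifi47 (0.59). Those genes were named for their smallest adjusted p in the simple comparisons, so their number is not set against the share over all genes. Replicate 1 of treated wild type, which stood apart in the interferon-stimulated sum, enters these differences: without it the values were 0.21 log2 for B2m, 0.73 for Tap1 and 0.84 for Psmb8.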

How the results depend on the processing

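The counts of members called higher or lower in the 4 simple comparisons stayed within 1.5 times in every alternative run, except the count called higher in treated knock-in against treated wild type, which was 1 and became 3 with total-count scaling (Psmb8, Tap1 and B2m) and 2 with the 5 CPM filter, with the replicate block, with limma voom and with DESeq2, where Tap1 was added. Leaving out 1 library at a time gave 1 to 2 for that count, with 2 without replicate 1 of treated wild type.

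Of 390 member values under settings other than leaving out a library, 373 were labelled unchanged. Of the rest, 7 lost the call, 7 gained it, 2 reversed and 1 moved by more than the spread. Of 600 values with a library left out, 582 were labelled unchanged, 9 lost the call, 3 gained it, none reversed and 6 moved. For tested values, unchanged means the same call, and a value that passed in neither fit could change sign within the spread. For H2-Q2 and the interaction, which carry no test, it means a shift within the spread. Total-count scaling reversed the genotype difference with treatment for H2-Q1 (0.03 log2) and B2m (0.10), ended the calls of H2-K1 without treatment (-0.07) and H2-D1 in treated wild type (0.09), and moved H2-Q2 with treatment to -1.93. That scaling shifts the median of all genes by 0.098, -0.104, -0.074 and 0.124 log2 in the genotype comparison untreated, the treatment comparisons in wild type and knock-in, and the genotype comparison treated. It also changes the split of all genes called higher and lower from 2884 and 2918 to 5024 and 1722 (genotype, untreated), from 3553 and 3496 to 2358 and 5338 (treatment, wild type) and from 3218 and 3447 to 5950 and 1867 (genotype, treated).

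Lists moved further. With total-count scaling, peptide supply genes called higher and lower were 3 and 8 with treatment in wild type (10 and 4), 3 and 4 in the knock-in (7 and 0), and 20 and 0 between treated genotypes (10 and 3), and regulators higher in the knock-in were 15 (7) and 20 (10). Peptide supply genes higher with treatment in the knock-in were 12 with the 2 groups alone and 4 without untreated knock-in replicate 2, and the 2 lower in untreated knock-in became 0 without a filter, 0 without untreated wild-type replicate 1 or any 1 untreated knock-in library, and 1 without any 1 treated knock-in library. Interferon-stimulated genes higher in untreated knock-in were 1, and 9 with the 2 groups alone, and those higher with treatment in wild type were 3, and 5 with the replicate block, 5 without treated wild-type replicate 2 and 6 with limma voom. Regulators higher with treatment in wild type were 2, and 4 with limma voom, and the other class I genes higher in untreated knock-in were 3, and 5 with total-count scaling. The other class I genes higher in treated knock-in were 5, and 2 with the 5 CPM filter. The interferon-stimulated genes whose responses differed between genotypes, a count added after seeing the data, were 3, and 7 without a filter and with the replicate block, and 1 with the 5 CPM filter. Causes were not tested.

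Same-numbered replicates did not deviate together (r of -0.026 to 0.056 over all genes), so the numbers were not taken as pairs. With the replicate block, H2-Q1 in treated knock-in against wild type was -0.10 log2 with an adjusted p of 0.052 and Tap1 was 0.41 with 0.0493 (edgeR); no other member call changed. The lowest count of any member was 99, for H2-Q2 in untreated knock-in.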
